A study of Mus musculus with 22 samples.

Results

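Hippocampus was compared with cerebral cortex within Ts1Cje mice, using the 12 Ts1Cje arrays of a series of 22 arrays. These were 6 hippocampus and 6 cortex arrays from the same 6 animals, paired by the animal number that the sample titles give, and each array was centred on its own median over all features before the pairs were compared. All mice were females aged 8 to 10 weeks. Ts1Cje mice carry an extra copy of the distal part of chromosome 16 joined to chromosome 12 and are a model of Down syndrome. The line was kept by crossing Ts1Cje males to C57Bl/6J females over several generations, and the other 10 arrays came from 5 wild-type (WT) littermates, which served here only to set the same comparison beside that of the Ts1Cje mice. Both groups were killed by cervical dislocation, the regions were dissected and snap frozen, and RNA with an integrity number above 9 was hybridised to Affymetrix mouse gene 1.0 ST arrays. Per the labels' protocols, cortex RNA was isolated with one kit (NucleoSpin RNA L) and hippocampus RNA with another (RNA II), so region and kit cannot be told apart.

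The hippocampus is an older, simpler sheet of cortex folded at its edge. Signals enter through the granule cells of the dentate gyrus, pass to CA3 pyramidal cells through the mossy fibres and from there to CA1, with the small field CA2 between. The cerebral cortex has layers of pyramidal neurons with distinct targets: upper layers project within the cortex, layer 5 to brainstem and spinal cord and layer 6 to the thalamus. Both regions lie beside other tissue. The choroid plexus and the ciliated ependyma of the lateral ventricle adjoin the hippocampus, and the striatum lies under the cortex, so RNA of such neighbours can enter a dissected block of tissue.

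Sequences are shown for one gene group that was higher in hippocampus, that of motile cilia, because a known regulatory site could be looked for in its promoters. Genes of motile cilia are controlled by RFX factors and by FOXJ1, and RFX factors bind the X-box, a repeat of 2 copies of a site near GTTGCC. Among the 250 bases before the annotated start of each gene, taken from RefSeq (GRCm38.p6), GTTGCC on either strand was found in 30.4% of the 23 windows of the list of ependymal and motile cilia genes (7 windows, for 17 of 20 genes with a window), in 23.8% of the 21 windows of the choroid plexus list, in 26.3% of the 19 windows of the list of cortical layers 2 to 4, whose median difference was towards cortex, and in 10.1% of all 19186 windows (15651 of 20239 genes). The site was thus not limited to lists higher in hippocampus. It was in 23 of 144 windows (16%) of genes at least 2-fold higher in hippocampus. Of those at least 2-fold higher in cortex it was in 17 of 181 (9.39%). In the CA1 list it was in 2 of 12 windows and in the striatal list in 1 of 13. Whether these shares differ was not tested. The 4 genes with the largest difference among the called members of the cilia list that held the site are shown. They were picked after their values were seen, and capitals mark the half-site on either strand.
Tekt1, a tektin of the ciliary axoneme (chr11:72361883-72362132, minus strand): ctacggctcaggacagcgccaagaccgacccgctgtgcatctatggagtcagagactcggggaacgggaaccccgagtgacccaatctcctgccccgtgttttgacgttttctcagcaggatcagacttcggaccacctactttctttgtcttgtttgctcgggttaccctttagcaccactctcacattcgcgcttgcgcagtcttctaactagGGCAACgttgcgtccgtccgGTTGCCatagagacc
Spag16, of the central apparatus of the axoneme (chr1:69826720-69826969, plus strand): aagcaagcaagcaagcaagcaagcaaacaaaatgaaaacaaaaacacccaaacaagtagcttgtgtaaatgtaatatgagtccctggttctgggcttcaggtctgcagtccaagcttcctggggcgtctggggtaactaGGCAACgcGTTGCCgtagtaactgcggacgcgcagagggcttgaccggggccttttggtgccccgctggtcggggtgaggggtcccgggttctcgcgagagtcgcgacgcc
Pifo, a ciliary protein (chr3:106001498-106001747, minus strand): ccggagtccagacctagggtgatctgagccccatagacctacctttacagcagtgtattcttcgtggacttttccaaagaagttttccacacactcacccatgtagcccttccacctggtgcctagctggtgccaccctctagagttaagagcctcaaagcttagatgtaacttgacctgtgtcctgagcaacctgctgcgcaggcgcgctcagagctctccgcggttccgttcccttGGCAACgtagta
Hydin, of the central apparatus of the axoneme (chr8:110266727-110266976, plus strand): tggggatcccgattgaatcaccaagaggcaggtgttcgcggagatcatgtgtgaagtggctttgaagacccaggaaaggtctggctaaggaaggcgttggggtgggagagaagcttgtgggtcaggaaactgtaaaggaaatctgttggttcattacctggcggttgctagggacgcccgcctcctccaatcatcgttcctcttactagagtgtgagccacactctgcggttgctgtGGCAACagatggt
The Tekt1 and Spag16 windows held 2 half-sites each, in opposite orientation, and the Pifo and Hydin windows 1 each. That of Hydin overlapped a match to the E-box CAGATG. The hippocampus minus cortex differences of these genes were 0.96 for Tekt1, 0.78 for Spag16, 0.73 for Pifo and 0.60 for Hydin on the log2 scale. A match is a description of the letters in the window, not a binding site. Of the other sites searched on both strands, the E-box CAGATG was in 12% of all windows, in 15.3% of those of genes at least 2-fold higher in hippocampus and in 14.9% of those at least 2-fold higher in cortex. The OTX site TAATCC was in 5.8% of all windows, in 2 of 21 (9.52%) of the choroid plexus list and in 2 of 19 (10.5%) of the list of layers 2 to 4. A site of MEF2 factors was in 3.11% of all windows. It was in 4.17% of those of genes at least 2-fold higher in hippocampus and in 2.21% of those at least 2-fold higher in cortex.

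The deposited log2 values had medians of 7.54 to 7.62 on the 6 cortex arrays and 6.91 to 6.94 on the 6 hippocampus arrays. Arrays of the same region shared between 184 and 978 identical values, arrays of different regions at most 1, and both regions therefore appear to have been normalized separately. Centring adds 0.64 to every gene's difference between hippocampus and cortex, so all differences below are relative to the median gene of each array and on the log2 scale; without it 280 genes were called higher in hippocampus and 18802 higher in cortex. A gene with a positive difference below that amount is lower in hippocampus in the values as deposited. Among the Ts1Cje arrays, those of animal 64 had a narrower spread of values than the others, with an SD over features of 1.95 in cortex (2.17 to 2.22 in the other animals) and 1.99 in hippocampus (2.14 to 2.16).

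Differences between the regions were widespread in the Ts1Cje mice. Of 20239 named genes, 4614 (22.8%) were higher in hippocampus and 4323 (21.4%) higher in cortex, together 44.2% (limma fit with the animal as a block, adjusted p under 0.05, called below). Counts of called list members below are to be read beside these shares. The median difference over all genes was 0.0079 and the median standard error (SE) 0.064; differences below are hippocampus minus cortex ± SE over the 6 pairs, negative where cortex was higher. Only 356 genes (1.76%) were called and differed at least 2-fold, 173 (0.855%) higher in hippocampus and 183 (0.904%) higher in cortex. For 3232 genes (16%) the values of the regions did not overlap over the 6 animals, and for 8089 (40%) all 6 animals differed in the same direction. Without the animal as a block, 2934 and 2799 genes were called, and without animal 64, 5258 and 4748.

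**Figure D1:**
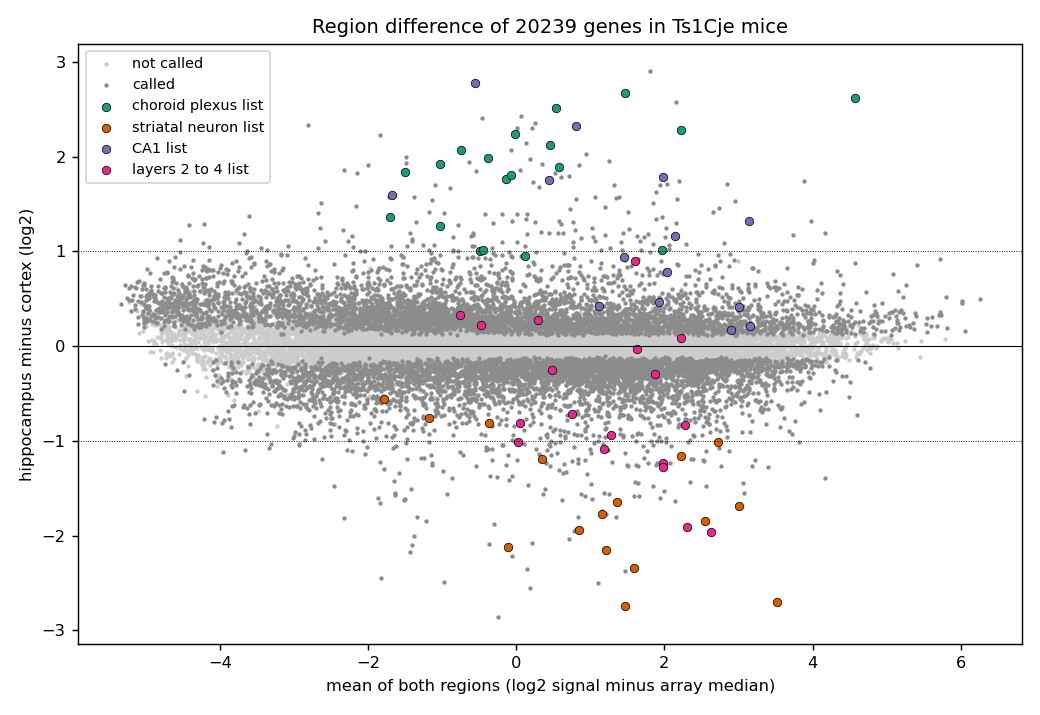
Hippocampus minus cortex difference (log2, vertical) against the mean centred level of both regions (log2 signal minus array median, horizontal) for 20239 genes in 6 Ts1Cje mice. Dark grey points are called, dotted lines mark 2-fold, and coloured points are members of 4 lists: choroid plexus genes lie above 0, striatal genes below 0, CA1 genes above 0, and genes of layers 2 to 4 mostly below 0.

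The largest differences on the hippocampal side were those of Cabp7, Spink8, Kl, Ttr, Shisa6, Sostdc1, Lct, Dsp, Slc9a4, Fibcd1, Npy2r and Il16. They were picked among called genes whose mean in hippocampus lay above that of the median gene. Cortex levels were not part of this rule, and Spink8 had a cortex mean of -1.945. Cabp7, a calcium-binding protein related to calmodulin, had centred levels between 0.032 and 0.54 in cortex (median 0.41) and between 3.12 and 3.44 in hippocampus (median 3.27). Its regions were far apart, with a difference of 2.90 ± 0.06 and an adjusted p of 3.82e-07 (limma). Shisa6, an auxiliary subunit of AMPA-type glutamate receptors, lay between 0.58 and 1.09 in cortex (median 0.88) and between 3.22 and 3.57 in hippocampus (median 3.53), again without overlap, and differed by 2.58 ± 0.084. Npy2r, a receptor for neuropeptide Y, differed by 2.30 ± 0.092, Slc9a4, a sodium-proton exchanger, by 2.35 ± 0.15, and Il16, a cytokine precursor, by 2.30 ± 0.10. In each of the 12 genes all 6 animals were higher in hippocampus and the regions did not overlap, which goes with picking the largest differences. Of all genes, 40% had all 6 animals on the same side and 16% did not overlap, in either direction.

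The largest differences on the cortical side were those of Exph5, Drd2, Penk, Abi3bp, Scn4b, Oprk1, Myl4, Foxp2, Rgs9, Dkkl1, Tac1 and Sh3rf2. These were picked among called genes whose mean in cortex lay above that of the median gene. Exph5, a protein that binds the vesicle GTPase Rab27, lay between 0.46 and 1.54 in cortex (median 1.26) and between -1.96 and -1.55 in hippocampus (median -1.65), a difference of -2.85 ± 0.084 with no overlap of the regions (limma, adjusted p 6.91e-07). Abi3bp, a matrix protein, differed by -2.55 ± 0.084, Oprk1, the kappa opioid receptor, by -2.49 ± 0.13, Myl4, a myosin light chain, by -2.38 ± 0.14, and Dkkl1, a relative of the Dickkopf Wnt inhibitors, by -2.21 ± 0.083. Scn4b, an auxiliary sodium channel subunit, differed by -2.50 ± 0.072. Of the 12, Drd2, Penk, Rgs9, Tac1 and Sh3rf2 are members of the list of striatal genes described further on. That list is not a full catalogue, and whether the others of the 12 came from cortical or striatal tissue was not tested.

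The labelled regions were checked against their defining markers. Prox1, a transcription factor of dentate granule cells, had centred levels between -0.33 and 0.73 in cortex (median 0.62) and between 1.77 and 2.40 in hippocampus (median 2.23). Every animal was higher in hippocampus and the regions did not overlap; the difference was 1.70 ± 0.086 (limma, adjusted p 4.76e-06). Wfs1 of CA1, Rgs14 of CA2 and Grik4 of CA3 were called higher in hippocampus too, by 0.41 ± 0.056, 0.68 ± 0.053 and 1.24 ± 0.043. On the cortical side Cux2, Rorb, Foxp2 and Tbr1 were higher in cortex, at -1.09 ± 0.079, -1.24 ± 0.062, -2.35 ± 0.079 and -1.01 ± 0.049. The exception was Fezf2, a factor of layer 5 neurons, which was higher in hippocampus by 0.46 ± 0.059, with levels between 1.67 and 2.21 in cortex (median 1.91) and between 2.17 and 2.49 in hippocampus (median 2.43) that overlapped between the regions. In the centred values the label of each region thus had its defining markers in all cases but that of Fezf2. Without centring, Wfs1 (-0.23) and Fezf2 (-0.18) were both lower in hippocampus. What part striatal tissue has in the levels of the cortical markers was not tested.

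**Figure D2:**
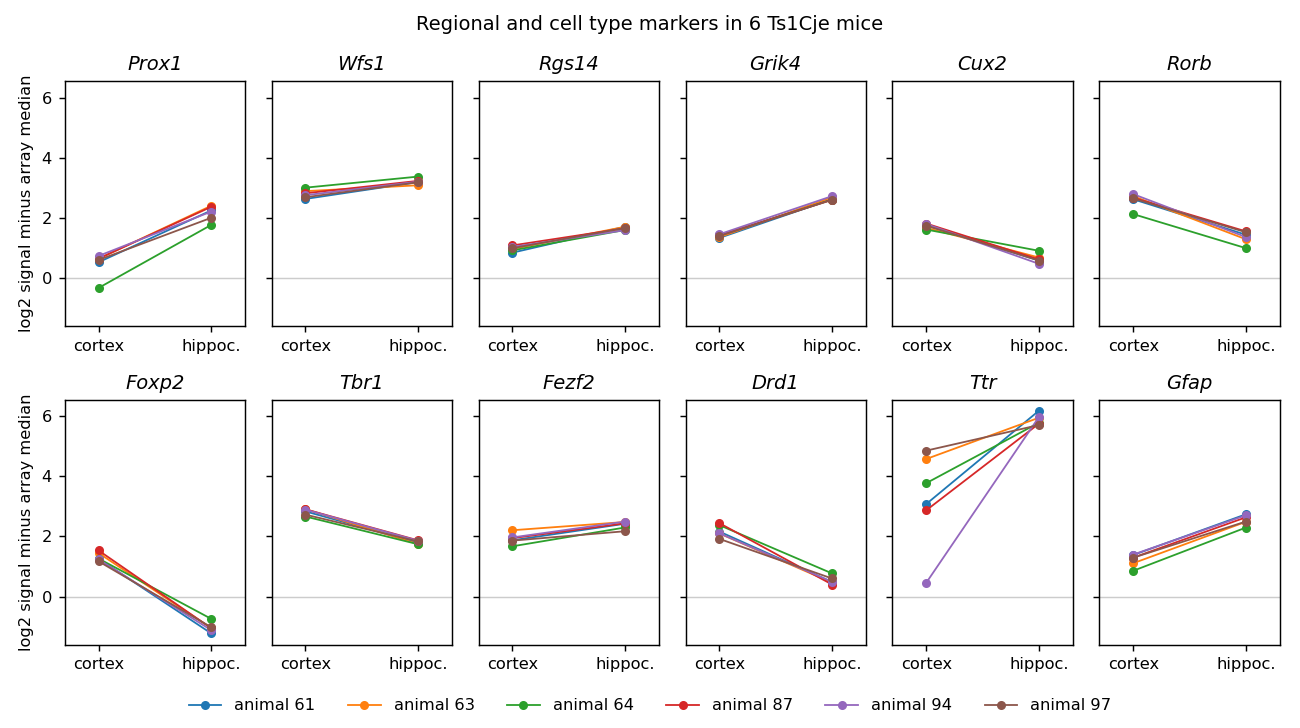
Centred level (log2 signal minus array median) of 12 marker genes in cortex and hippocampus, with a line for each of the 6 Ts1Cje animals. Prox1, Wfs1, Rgs14, Grik4, Fezf2, Ttr and Gfap are higher in hippocampus in all 6 animals, Cux2, Rorb, Foxp2, Tbr1 and Drd1 are lower, and the cortex values of Ttr run from 0.46 to 4.85.

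Of 22 dentate granule genes, 14 were called higher in hippocampus, 3 higher in cortex and 5 were not called, with a median difference of 0.60. Lct, the enzyme lactase, lay between -1.35 and -0.86 in cortex (median -1.18) and between 0.98 and 1.43 in hippocampus (median 1.34). Dsp, desmoplakin, a plaque protein of desmosomes, lay between -1.95 and -1.07 in cortex (median -1.76) and between 0.52 and 0.91 in hippocampus (median 0.78). Neither gene overlapped between regions, and they differed by 2.43 ± 0.11 and 2.41 ± 0.14. Tdo2, which degrades tryptophan, and C1ql2, a secreted synaptic protein of the C1q family, differed by 2.23 ± 0.15 and 2.03 ± 0.12. Calb1, the calcium buffer calbindin, went the other way, at -0.22 ± 0.06, with overlapping regions (limma, adjusted p 0.017), a call that was lost without the animal block.

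All 14 CA1 genes were called higher in hippocampus, with a median difference of 1.05. Spink8, a predicted inhibitor of serine proteases, had levels between -2.03 and -1.80 in cortex (median -1.97) and between 0.14 and 1.16 in hippocampus (median 0.96). Fibcd1, a membrane receptor that binds chitin, lay between -0.47 and -0.15 in cortex (median -0.38) and between 1.64 and 2.19 in hippocampus (median 2.02). Both genes separated the regions completely, by 2.78 ± 0.15 and 2.32 ± 0.096. Nr3c2, the mineralocorticoid receptor, differed by 1.79 ± 0.06, Gpr161, a receptor of the primary cilium, by 1.76 ± 0.047, and Lefty1, a secreted inhibitor of Nodal signalling, by 1.59 ± 0.13. Wfs1 was among the smallest differences of the list, which ran from 0.17 to 2.78.

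Of 15 CA2 genes 10 were called higher in hippocampus and 2 higher in cortex (median 0.31), and of 20 genes of CA3 and the mossy cells 10 and 4 (median 0.22). Amigo2, a cell adhesion protein marking CA2, differed by 1.18 ± 0.073, while Actn2, an actinin, was higher in cortex, at -0.73 ± 0.048. In the CA3 and mossy list Iyd, a deiodinase, lay between -2.74 and -1.89 in cortex (median -2.61) and between -0.71 and -0.25 in hippocampus (median -0.50), and Homer3, a scaffold of postsynaptic densities, lay between -0.19 and 0.44 in cortex (median -0.044) and between 1.35 and 1.58 in hippocampus (median 1.43). Neither overlapped, and the differences were 1.99 ± 0.12 and 1.44 ± 0.087; Bok, of the BCL2 family, differed by 0.63 ± 0.081. Coch, a secreted matrix protein, and Drd2, the dopamine D2 receptor, which mossy cells share with striatal neurons, were higher in cortex, at -1.25 ± 0.11 and -2.75 ± 0.10. Sostdc1, a secreted inhibitor of BMP and Wnt signals (2.51 ± 0.22), stands in both the CA2 and the choroid plexus lists.

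Among 18 genes of layers 2 to 4, 12 were called higher in cortex and 4 higher in hippocampus (median -0.76). Lamp5, a membrane protein of upper-layer neurons and some interneurons, had levels between 3.44 and 3.84 in cortex (median 3.60) and between 1.55 and 1.77 in hippocampus (median 1.65). Kcnh5, a voltage-gated potassium channel, lay between 2.98 and 3.39 in cortex (median 3.32) and between 1.24 and 1.45 in hippocampus (median 1.35). The regions did not overlap in either, and the differences were -1.96 ± 0.08 and -1.91 ± 0.056; Plxnd1, a semaphorin receptor, differed by -1.28 ± 0.096. Mdga1, a membrane protein that binds neuroligins, was higher in hippocampus by 0.89 ± 0.07. Of 22 genes of layer 6 and the subplate 12 were called higher in cortex and 5 higher in hippocampus (median -0.28). Foxp2, a forkhead factor, was between 1.17 and 1.53 in cortex (median 1.26) and between -1.22 and -0.74 in hippocampus (median -1.05), the widest gap of that list. Syt6, a synaptotagmin, differed by -1.95 ± 0.057 and Cplx3, a complexin of subplate cells, by -0.93 ± 0.099, whereas Nnat, neuronatin, was higher in hippocampus by 0.90 ± 0.052.

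Of 20 layer 5 genes 11 were called higher in hippocampus and 7 higher in cortex, with a median of 0.26. Crym, which binds thyroid hormone, was between 1.70 and 2.19 in cortex (median 1.94) and between 3.33 and 3.48 in hippocampus (median 3.34) and differed by 1.41 ± 0.068. Rbp4, a retinol carrier, had levels between 1.25 and 1.79 in cortex (median 1.48) and between 0.37 and 0.92 in hippocampus (median 0.52) and was higher in cortex, at -0.94 ± 0.12. The regions overlapped in neither gene. Pcp4, a calmodulin-binding peptide of layer 5 and of CA2 that lies in the triplicated segment, did not pass the test (-0.11 ± 0.043, adjusted p 0.0626, limma).

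Transcription factors of forebrain patterning were distributed over both sides: 23 of 49 were called higher in hippocampus and 15 higher in cortex (median 0.16). Lhx9, a LIM homeobox factor, was between -1.70 and -1.04 in cortex (median -1.54) and between -0.16 and 0.60 in hippocampus (median 0.47). Zbtb20, a repressor required for hippocampal neuron identity, was between 2.16 and 2.62 in cortex (median 2.54) and between 3.68 and 3.85 in hippocampus (median 3.82). They differed by 1.85 ± 0.17 and 1.32 ± 0.053, with no overlap, and Nr4a3, a nuclear receptor, and Neurod6 by 1.19 ± 0.07 and 1.16 ± 0.079. Emx2, needed for growth of the medial cortex, was higher in hippocampus by 0.49 ± 0.082 with overlapping regions, and Lhx2 did not pass the test (0.03 ± 0.058, adjusted p 0.707, limma). Higher in cortex were Meis2, a homeobox factor also abundant in striatum, at -1.45 ± 0.065, Mef2c, at -1.39 ± 0.092, and Dach1, at -1.37 ± 0.056. The levels of Mef2c were between 4.76 and 4.97 in cortex (median 4.87) and between 3.29 and 3.77 in hippocampus (median 3.40), so the regions were separate.

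**Figure D3:**
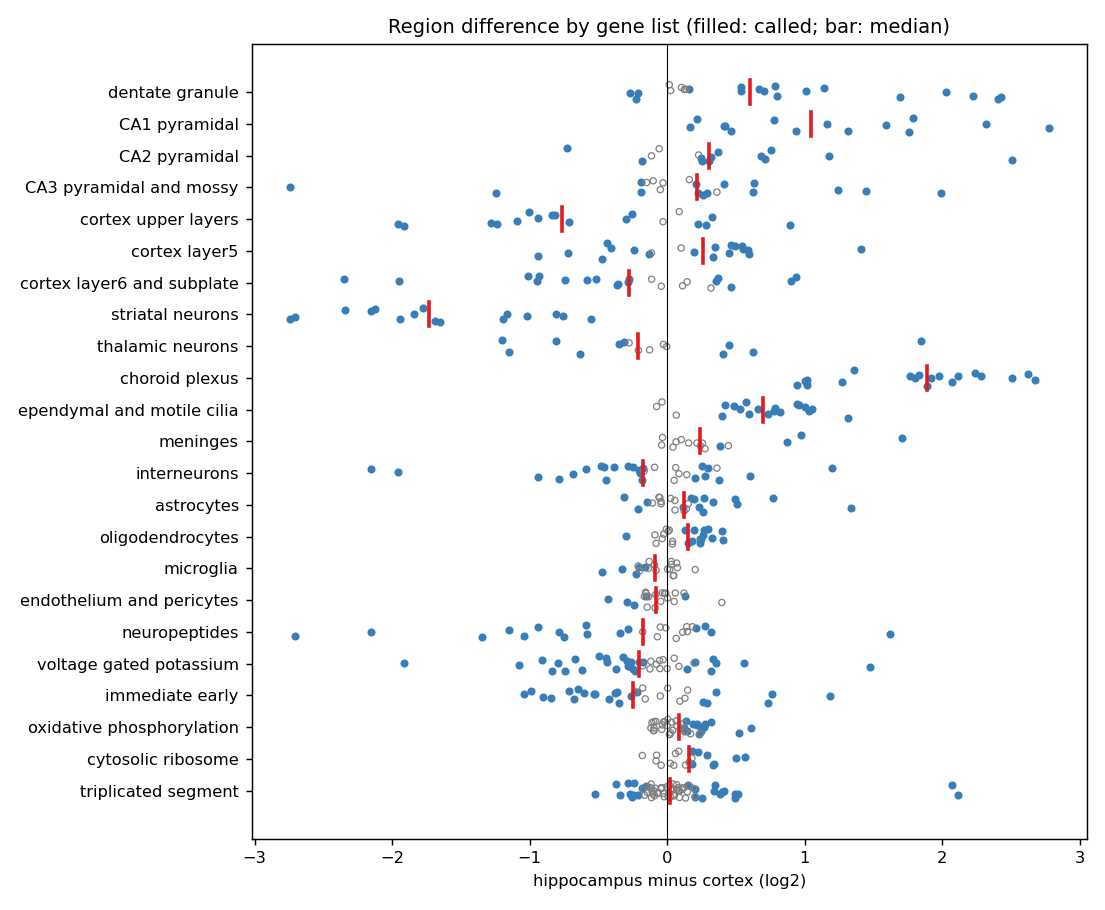
Hippocampus minus cortex difference (log2, horizontal) of the measured members of 23 gene lists in 6 Ts1Cje mice. Filled points are called, open points are not, and a red bar marks each list's median, which is highest for choroid plexus (1.89) and lowest for striatal neurons (-1.73).

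The lowest and the highest list medians were those of neighbouring tissue. All 16 measured genes of striatal neurons were called higher in cortex, with a median of -1.73, and 13 of them differed at least 2-fold. Their mean centred level was 1.84 to 2.14 on the 6 cortex arrays and 0.27 to 0.54 on the hippocampus arrays, with no overlap. Drd1, the dopamine D1 receptor, was between 1.92 and 2.44 in cortex (median 2.13) and between 0.40 and 0.77 in hippocampus (median 0.49) and differed by -1.65 ± 0.083 (limma, adjusted p 4.53e-06). Penk, the precursor of enkephalins, was between 4.72 and 5.00 in cortex (median 4.90) and between 1.97 and 2.67 in hippocampus (median 2.08) and differed by -2.71 ± 0.093. Rgs9, a regulator of G protein signalling in striatal neurons, differed by -2.34 ± 0.074, Tac1, the precursor of substance P, by -2.15 ± 0.065, and Sh3rf2, a RING finger protein, by -2.12 ± 0.075. In single animals the list's median ran from -2.01 to -1.56. What part striatal tissue has in the cortical side of the comparison was not tested.

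All 19 measured choroid plexus genes were called higher in hippocampus, with a median of 1.89, and 17 of them differed at least 2-fold. Their mean centred level was -1.19 to -0.12 on the cortex arrays and 0.82 to 1.54 on the hippocampus arrays. Ttr, transthyretin, the thyroid hormone carrier secreted by the choroid plexus, was between 0.46 and 4.85 in cortex (median 3.42) and between 5.70 and 6.18 in hippocampus (median 5.86). Its cortex values were spread over more than the difference itself, 2.62 ± 0.53 (limma, adjusted p 0.00452), with animal 94 lowest and animal 97 highest. Kl, klotho, was between -0.59 and 1.22 in cortex (median -0.12) and between 2.43 and 3.26 in hippocampus (median 2.79), a difference of 2.67 ± 0.27 with no overlap. The size of the list's difference varied between animals, from a median of 0.99 in animal 97 to 2.47 in animal 61. What part choroid plexus tissue has in the hippocampal side was not tested.

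Of 20 ependymal and motile cilia genes, 17 were called higher in hippocampus and 0 higher in cortex (median 0.70). Foxj1, the master factor of motile cilia, was between -1.03 and -0.64 in cortex (median -0.85) and between 0.097 and 0.28 in hippocampus (median 0.18). Dnah9, an axonemal dynein heavy chain, was between -0.75 and -0.67 in cortex (median -0.72) and between 0.51 and 0.76 in hippocampus (median 0.57). Neither overlapped; the differences were 1.03 ± 0.058 and 1.32 ± 0.05, and Ak7, an adenylate kinase of cilia, differed by 1.05 ± 0.083. The dynein gene Dnah11, on chromosome 12, did not pass the test (-0.037 ± 0.059, positive under quantile normalization). When the dimmest genes were left out and 13492 remained, 11 genes of the list were called. Of the 13492 genes 3032 were called higher in hippocampus. The filter can remove members of the list, so the 11 is not to be set against the 17 of 20.

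Of 15 meningeal genes 4 (26.7%) were called higher in hippocampus, near the 22.8% of all genes, and 0 in cortex (median 0.24). Dcn, the proteoglycan decorin, had the largest difference, 1.71 ± 0.12. Its levels were between 1.12 and 2.61 in cortex (median 2.12) and between 3.26 and 3.88 in hippocampus (median 3.74). Of 15 thalamic genes 4 (26.7%) were called higher in hippocampus and 6 (40%) in cortex (median -0.21), where 22.8% and 21.4% of all genes were. The list's median in single animals ran from -0.55 to 0.029.

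Among 30 interneuron genes 16 were called higher in cortex and 7 in hippocampus (median -0.18). Tac1 and Lamp5, both already given, had the largest differences towards cortex. Tac1 is also a striatal gene, and what part striatal tissue has in this list was not tested. Htr3a, the ionotropic serotonin receptor of one interneuron class, was between -0.14 and 0.43 in cortex (median -0.042) and between 1.19 and 1.28 in hippocampus (median 1.23), higher in hippocampus by 1.20 ± 0.083. In whole tissue, fewer cells of a type and less RNA per cell cannot be told apart.

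The medians of the glial lists were near 0, with larger differences in single genes such as Gfap. Of 25 astrocyte genes 11 were called higher in hippocampus and 3 in cortex (median 0.12). Gfap, the filament protein of astrocytes, was between 0.86 and 1.40 in cortex (median 1.29) and between 2.29 and 2.74 in hippocampus (median 2.56), without overlap, and differed by 1.34 ± 0.046 (limma, adjusted p 8.75e-07). Agt, angiotensinogen, differed by 0.77 ± 0.065, and S100b, a calcium-binding protein, was higher in cortex, at -0.31 ± 0.049. Of 23 oligodendrocyte genes 13 were called higher in hippocampus and 1 in cortex (median 0.15), with Mbp, myelin basic protein, at 0.33 ± 0.045 and Qdpr, a pterin reductase, at 0.41 ± 0.053. Of 12 precursor genes 6 were higher in hippocampus and 2 in cortex (median 0.11). Without centring, Mbp and Qdpr were lower in hippocampus.

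Of 20 microglial genes 0 were called higher in hippocampus and 5 (25%) in cortex (median -0.086, and -0.051 under quantile normalization). The share in cortex was near the 21.4% of all genes. C1qc, a complement subunit, had the largest difference of the called microglial genes, -0.47 ± 0.15, with overlapping regions and 1 of 6 animals higher in hippocampus (limma, adjusted p 0.0337). That call was lost when animal 61, 64, 94 or 97 was left out. Of 21 endothelial and pericyte genes 1 (4.76%) was called higher in hippocampus and 4 (19%) in cortex (median -0.082, and -0.049 under quantile normalization), where 22.8% and 21.4% of all genes were. Abcb1a, the efflux pump of the blood-brain barrier, differed by -0.43 ± 0.045.

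The subgranular zone of the dentate gyrus makes neurons in adult mice, and genes of that process were not uniformly higher in hippocampus. Of 25 genes 10 were called higher in hippocampus and 3 in cortex (median 0.056). Hopx, a homeodomain protein of neural stem cells, was between 0.72 and 1.06 in cortex (median 0.91) and between 2.01 and 2.31 in hippocampus (median 2.12) and differed by 1.24 ± 0.041. Neurod1, a factor of young granule cells, differed by 0.84 ± 0.049, higher in all 6 animals although the regions overlapped. Dcx, doublecortin, a microtubule protein of migrating neurons, was between 1.70 and 2.32 in cortex (median 1.99) and between 0.87 and 1.29 in hippocampus (median 1.08), higher in cortex, at -0.95 ± 0.078. Eomes, a factor of intermediate progenitors, was higher in cortex, at -1.07 ± 0.21, at between -1.94 and -0.17 in cortex (median -1.23) and between -2.30 and -1.97 in hippocampus (median -2.23). Neither of the last pair overlapped between regions.

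Glutamate receptor genes divided by subunit. Of 16 ionotropic subunits 4 were called higher in hippocampus and 6 in cortex (median -0.042, and 0.0083 under quantile normalization). Gria1, an AMPA receptor subunit, was between 3.90 and 3.98 in cortex (median 3.93) and between 4.64 and 4.84 in hippocampus (median 4.72), and differed by 0.79 ± 0.05. Grik4, a kainate receptor subunit of mossy fibre synapses, was between 1.33 and 1.46 in cortex (median 1.41) and between 2.60 and 2.72 in hippocampus (median 2.62). Grik3, another kainate subunit, was higher in cortex, at -0.78 ± 0.041, as was the AMPA subunit Gria4 at -0.64 ± 0.081. Of 20 metabotropic receptors and auxiliary subunits 5 were higher in hippocampus and 9 in cortex (median -0.11, and -0.069 under quantile normalization). The AMPA receptor partners Shisa6, Cnih2 and Cacng8 were higher in hippocampus, the last pair by 0.88 ± 0.053 and 0.85 ± 0.058, and the metabotropic receptors Grm8 and Grm3 higher in cortex, at -0.89 ± 0.086 and -0.79 ± 0.052.

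Of 16 GABA receptor genes 5 were called higher in hippocampus and 7 in cortex (median -0.034, and -0.15 under quantile normalization). Gabra5, the alpha subunit of extrasynaptic receptors on hippocampal pyramidal cells, was between 3.42 and 3.71 in cortex (median 3.56) and between 4.55 and 4.86 in hippocampus (median 4.83). Gabrd, the delta subunit of extrasynaptic receptors, was between 1.76 and 2.16 in cortex (median 2.07) and between 0.86 and 0.94 in hippocampus (median 0.90). Each separated the regions, in opposite directions, by 1.19 ± 0.054 and -1.13 ± 0.067; Gabra3 differed by -0.93 ± 0.072.

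Receptors for serotonin, dopamine, noradrenaline and acetylcholine differed in both directions. Of 14 serotonin receptors 4 were higher in hippocampus and 6 in cortex (median -0.058, and -0.089 under quantile normalization). Htr5b and Htr4 were higher in hippocampus by 1.40 ± 0.13 and 1.31 ± 0.088, and Htr1d and Htr2a higher in cortex, at -1.85 ± 0.078 and -1.19 ± 0.068. Htr2a, a receptor of layer 5 pyramidal neurons, was between 2.82 and 3.23 in cortex (median 2.97) and between 1.62 and 1.94 in hippocampus (median 1.80). Of 7 adrenergic and dopamine receptors 1 was higher in hippocampus, Drd5 by 1.31 ± 0.082, and 4 in cortex (median -0.47), among them Drd2, Drd1 and Adra1b (-1.23 ± 0.043). Of 17 acetylcholine receptors 7 were higher in hippocampus and 4 in cortex (median 0.049, and 0.098 under quantile normalization), with Chrm5 at 1.20 ± 0.094, the nicotinic subunit Chrna7 at 0.75 ± 0.061, Chrm2 at -0.93 ± 0.095 and Chrm4 at -0.92 ± 0.076.

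Of 25 neuropeptide genes 12 were called higher in cortex and 4 in hippocampus (median -0.18). Besides Penk and Tac1, Adcyap1, the precursor of PACAP, was between 1.46 and 1.88 in cortex (median 1.61) and between 0.15 and 0.40 in hippocampus (median 0.26) and differed by -1.35 ± 0.074. Grp, gastrin-releasing peptide, was between 0.42 and 1.44 in cortex (median 1.15) and between 2.35 and 2.89 in hippocampus (median 2.77) and was higher in hippocampus by 1.62 ± 0.098. Penk and Tac1 are also striatal genes. Of 38 peptide receptors 11 (28.9%) were higher in hippocampus and 12 (31.6%) in cortex (median -0.075), where 22.8% and 21.4% of all genes were. Cckbr, a receptor for cholecystokinin, differed by -1.63 ± 0.092 and Tacr1, the receptor for substance P, by -1.26 ± 0.061.

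Ion channels set the firing pattern of a neuron. Of 39 voltage-gated potassium channel genes 21 were called higher in cortex and 7 in hippocampus (median -0.20), of 31 other potassium channel genes 15 and 4 (median -0.17) and of 23 calcium and sodium channel genes 14 and 3 (median -0.17). Kcnh7, of the ERG family, was between 2.84 and 3.40 in cortex (median 3.36) and between 1.94 and 2.32 in hippocampus (median 2.23), a difference of -1.08 ± 0.051. Kcnt1, a sodium-activated potassium channel, differed by -1.25 ± 0.058, and Kcng2, a modifying subunit, by 1.47 ± 0.077, at between 0.23 and 0.96 in cortex (median 0.34) and between 1.69 and 2.08 in hippocampus (median 1.97). Scn3b, a sodium channel beta subunit, and Cacna1h, a T-type calcium channel, were higher in hippocampus by 0.83 ± 0.058 and 0.75 ± 0.054, and Cacna1i, another T-type channel, higher in cortex, at -0.70 ± 0.049.

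Axon guidance and adhesion molecules direct the wiring of both regions. Of 46 semaphorin, slit and netrin pathway genes 18 were called on each side. Nrp1, a semaphorin receptor, was between 0.63 and 1.25 in cortex (median 1.18) and between 2.21 and 2.73 in hippocampus (median 2.67), and its ligand Sema3a was between 1.12 and 2.01 in cortex (median 1.87) and between -0.29 and 0.013 in hippocampus (median -0.17). Receptor and ligand thus lay on opposite sides, at 1.51 ± 0.054 and -1.93 ± 0.12; Slit1, a repellent, was higher in hippocampus by 1.46 ± 0.057. Of 21 Eph receptors and ephrins 8 were higher in hippocampus and 6 in cortex (median 0.078, and 0.027 under quantile normalization), with Epha6 at 0.96 ± 0.052 and the ligand Efna5 at -1.55 ± 0.057. Of 27 cadherins and protocadherins 16 were higher in cortex and 6 in hippocampus (median -0.32): Cdh7 and Cdh6 differed by -1.58 ± 0.099 and -1.27 ± 0.048, and Pcdh20 by 1.70 ± 0.09. Of 8 C1q-like and cerebellin genes 5 were higher in hippocampus and 1 in cortex, Cbln2, an organiser of synapses, at -1.78 ± 0.045.

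The hippocampus is a main target of corticosteroids. The mineralocorticoid receptor Nr3c2 was between 0.62 and 1.32 in cortex (median 1.16) and between 2.44 and 3.10 in hippocampus (median 2.92), with no overlap of the regions. The glucocorticoid receptor Nr3c1 went the other way, between 1.99 and 2.83 in cortex (median 2.71) and between 1.74 and 2.37 in hippocampus (median 2.24), with overlap and a difference of -0.41 ± 0.056 (limma, adjusted p 0.000658). Of 16 genes of the corticosteroid list 7 were higher in hippocampus and 5 in cortex (median 0.095). Fkbp5, a chaperone induced through the receptor, and Hsd11b1, which regenerates active corticosterone, were higher in hippocampus by 0.85 ± 0.082 and 0.81 ± 0.064.

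Of 44 Wnt pathway genes 11 (25%) were called higher in hippocampus and 8 (18.2%) in cortex, near the 22.8% and 21.4% of all genes (median -0.0049). Nkd2, an inhibitor of the pathway, differed by 0.94 ± 0.089 and Rspo1, a secreted enhancer, by -1.01 ± 0.056. Of 41 genes of growth factor families 13 (31.7%) were called on each side. Chrd, the BMP antagonist chordin, and Fgfr1 were higher in hippocampus by 0.86 ± 0.04 and 0.85 ± 0.055, and Nrg1, neuregulin, and Igfbp6 higher in cortex, at -1.46 ± 0.059 and -1.23 ± 0.092. Of 17 retinoic acid genes 5 (29.4%) were called on each side. Stra6, which takes up retinol, was between 0.17 and 0.46 in cortex (median 0.28) and between 1.35 and 1.53 in hippocampus (median 1.46), and differed by 1.14 ± 0.056. The retinoid receptors Rarb, also a striatal gene, and Rxrg were higher in cortex, at -1.77 ± 0.12 and -1.77 ± 0.055.

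Of 30 immediate-early genes, which neuronal activity induces within minutes, 16 were called higher in cortex and 6 in hippocampus (median -0.25). Npas4 was between 1.37 and 1.98 in cortex (median 1.72) and between 0.38 and 1.07 in hippocampus (median 0.57) and differed by -1.04 ± 0.11. Egr2 and Homer1 differed by -0.99 ± 0.12 and -0.90 ± 0.061. Nr4a3, given above, and Ptgs2, a prostaglandin synthase, were higher in hippocampus, the latter by 0.76 ± 0.059. The WT list median was -0.094 with 11 and 5 genes called.

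Among 25 genes of the matrix around neurons 8 were higher in hippocampus and 9 in cortex, with the protease Adamts1 at 0.73 ± 0.057 and the collagen Col6a1 at -0.75 ± 0.05. Of 33 calcium-binding and calmodulin-related genes 11 were higher in hippocampus and 15 in cortex (median -0.11, and -0.22 under quantile normalization). Hpca, hippocalcin, was between 4.90 and 5.06 in cortex (median 5.01) and between 5.73 and 5.94 in hippocampus (median 5.85), a difference of 0.85 ± 0.051. The kinases Camk4 and Camk2d were higher in cortex, at -0.99 ± 0.066 and -0.96 ± 0.067.

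Of 40 genes of oxidative phosphorylation 14 were called higher in hippocampus and 0 in cortex (median 0.085), and of 19 measured genes of the cytosolic ribosome (47 sought) 8 and 0 (median 0.16). Cyc1, cytochrome c1, was between 2.44 and 2.72 in cortex (median 2.62) and between 3.04 and 3.33 in hippocampus (median 3.25) and differed by 0.61 ± 0.046; Rplp1, a ribosomal protein, by 0.57 ± 0.085. Without centring both were lower in hippocampus, at -0.034 and -0.074. The median difference also varied with a gene's level, from 0.086 in the dimmest of 5 equal classes of genes to -0.038 in the next to brightest class.

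Genes of the triplicated segment were present in an extra copy in both regions of these animals. Of 69 measured genes, from the gene after Sod1 to Zbtb21, 14 (20.3%) were called higher in hippocampus and 11 (15.9%) in cortex, below the 22.8% and 21.4% of all genes, with 44 not called and a median of 0.024. The largest differences were those of Clic6, an intracellular chloride channel protein, and Kcne2, a potassium channel subunit, and both are also choroid plexus genes. Clic6 was between -1.17 and 0.079 in cortex (median -0.62) and between 0.97 and 2.09 in hippocampus (median 1.56) and Kcne2 was between -2.23 and -1.27 in cortex (median -1.81) and between -0.17 and 0.90 in hippocampus (median 0.28). Neither overlapped, and the differences were 2.12 ± 0.20 and 2.07 ± 0.20. No other segment gene differed 2-fold.

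Among the other segment genes Hunk, a kinase, was between 1.39 and 1.66 in cortex (median 1.53) and between 1.92 and 2.15 in hippocampus (median 2.04), and higher in hippocampus by 0.51 ± 0.057. Olig1, a factor of the oligodendrocyte lineage, was between 1.82 and 2.42 in cortex (median 2.20) and between 2.46 and 2.87 in hippocampus (median 2.69), and higher by 0.49 ± 0.052. Both separated the regions, while Olig2, its neighbour and relative, did not pass the test (0.069 ± 0.067). Kcnj6, a G protein-gated potassium channel, differed by 0.34 ± 0.057, and Synj1, a lipid phosphatase that synapses need to recycle vesicles, by 0.20 ± 0.043, the latter with overlap. Hlcs, which attaches biotin to enzymes, and Dscam, an adhesion molecule, were higher in cortex, at -0.52 ± 0.058 and -0.24 ± 0.049. Dyrk1a, a kinase studied in Down syndrome, and Rcan1, an inhibitor of calcineurin, gave 0.044 ± 0.043 and 0.052 ± 0.05, with adjusted p of 0.432 and 0.425 (limma).

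Sod1 and App, on chromosome 16 but not in the list of segment genes, were called higher in hippocampus by 0.31 ± 0.048 and 0.18 ± 0.041; App, at between 5.18 and 5.35 in cortex (median 5.27) and between 5.39 and 5.49 in hippocampus (median 5.46), turned to -0.098 under quantile normalization. Of 11 genes of distal chromosome 12 near the junction 1 (9.09%) was called higher in hippocampus and 2 (18.2%) in cortex, where 22.8% and 21.4% of all genes were. Tmem196 was between 1.44 and 1.81 in cortex (median 1.71) and between 0.55 and 0.83 in hippocampus (median 0.74), a difference of -0.96 ± 0.044. Macc1, far below the median gene in both regions, differed by 0.45 ± 0.084, and Itgb8, an integrin, did not pass the test (-0.075 ± 0.049).

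**Figure D4:**
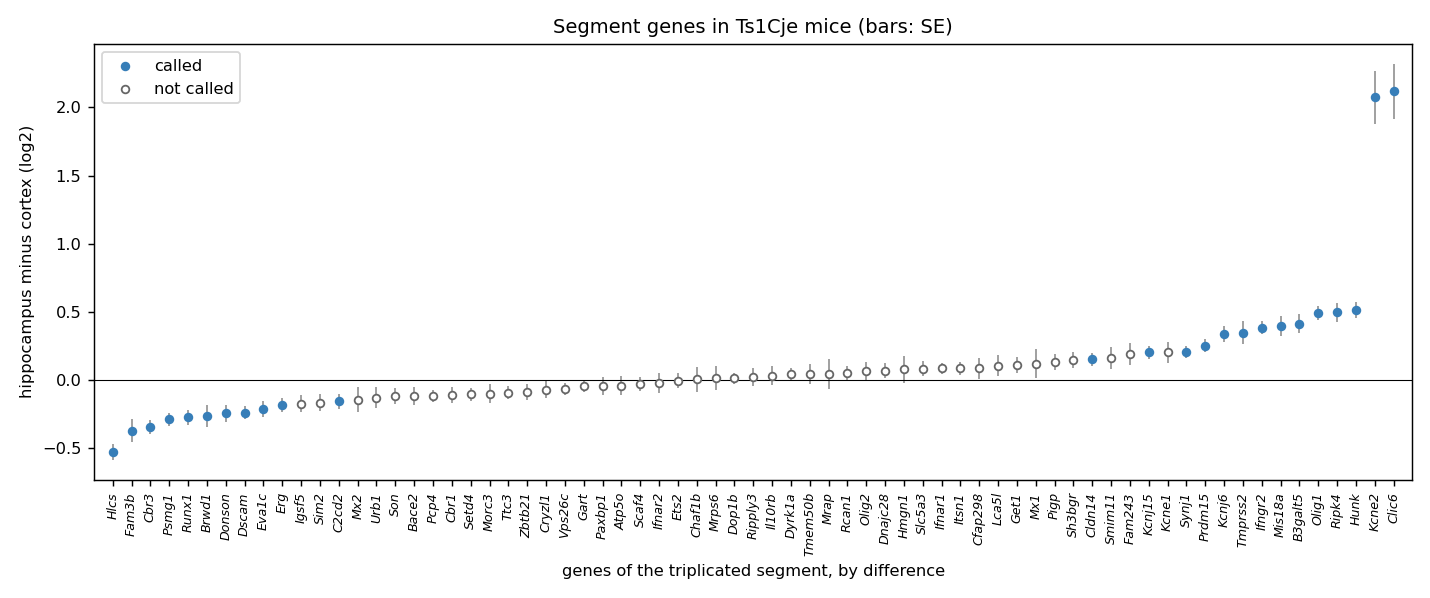
Hippocampus minus cortex difference (log2, vertical) of the 69 measured genes of the triplicated segment in 6 Ts1Cje mice, ordered by the difference, with SE bars. Filled points are called; Kcne2 and Clic6 lie near 2, and all other genes lie between -0.52 and 0.51.

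The same comparison in the 5 WT littermates called 6090 genes (30.1%), 2746 (13.6%) higher in hippocampus and 3344 (16.5%) in cortex. The titles of 1 WT pair give animal 60 where the descriptions give 61. The cortex array of that animal stood furthest apart, with an SD over features of 1.861 (2.17 to 2.21 on the other WT cortex arrays) and a median r of 0.969 with the other WT cortex arrays, where those had 0.996 to 0.997. Without animal 60, a choice made after seeing the data, 10889 genes (53.8%) were called in WT, 4960 (24.5%) higher in hippocampus and 5929 (29.3%) in cortex. Of the genes called higher in hippocampus in Ts1Cje mice 2420 were also called in WT (52.4% of the Ts1Cje and 88.1% of the WT calls), and of those higher in cortex 2687 (62.2% and 80.4%). Without animal 60 the shared calls were 3708 (80.4% and 74.8%) and 3923 (90.7% and 66.2%). Of the 173 and 183 genes with at least 2-fold differences 149 and 165 met the same rule in WT, where 184 and 205 genes did (86.1% and 90.2% of the Ts1Cje genes, 81% and 80.5% of the WT genes), and 150 and 174 without animal 60, where 186 and 218 did. Of all Ts1Cje calls 3 were called in the opposite direction in WT, and 6 without animal 60. Across genes, which are not independent replicates, the differences in the 2 genotypes had an r of 0.91, and of 0.94 without animal 60.

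Whether a region difference was itself different in Ts1Cje mice was tested on the 11 animal differences, 6 Ts1Cje and 5 WT. No gene passed (0 of 20239, 0%, limma with Benjamini-Hochberg adjustment), and 1024 genes had an unadjusted p under 0.05, where 5% of the genes tested is 1012. The median SE of the difference between genotypes was 0.11. In simulated data, with all arrays drawn independently, this test recovered 23 of 100 genes changed by 0.5 and 75 of 100 changed by 1. The 0 therefore does not show that the region differences were the same in both genotypes. The 8 genes with the lowest p, Mir1a-2, Olfr1113, Eif4a3l1, Nlrp9b, Cks1brt, Skint9, Mir202 and Mcpt2, all lay below the median gene. Mir1a-2, the locus of a muscle microRNA, differed between regions by 0.42 ± 0.043 in Ts1Cje and by 0.025 in WT mice, and Olfr1113, an olfactory receptor, by 0.66 ± 0.096 and -0.021. Their levels were between -5.30 and -3.31.

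The medians of some of the lists are given for both genotypes. The choroid plexus list had 1.89 in Ts1Cje and 2.01 in WT mice, the striatal list -1.73 and -1.61, the CA1 list 1.05 and 1.19, and the upper-layer list -0.76 and -0.82. The list of segment genes had 0.024 and 0.023. Other lists were less alike. The microglial list had -0.086 in Ts1Cje and 0.032 in WT mice, the Eph and ephrin list 0.078 and -0.032, and the thalamic list -0.21 and -0.076. In single animals these medians overlapped between genotypes. The microglial ran from -0.15 to -0.010 in Ts1Cje and from -0.032 to 0.15 in WT mice. The Eph and ephrin ran from -0.042 to 0.22 and from -0.038 to 0.12, and the thalamic from -0.55 to 0.029 and from -0.24 to 0.34. WT animal 60 had the highest microglial and thalamic medians. List medians were not tested between genotypes. Clic6 and Kcne2 differed between regions by 2.29 and 1.74 in WT mice, where each was called as well. No gene passed the test between genotypes, so none of the lists had a member that did.

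**Figure D5:**
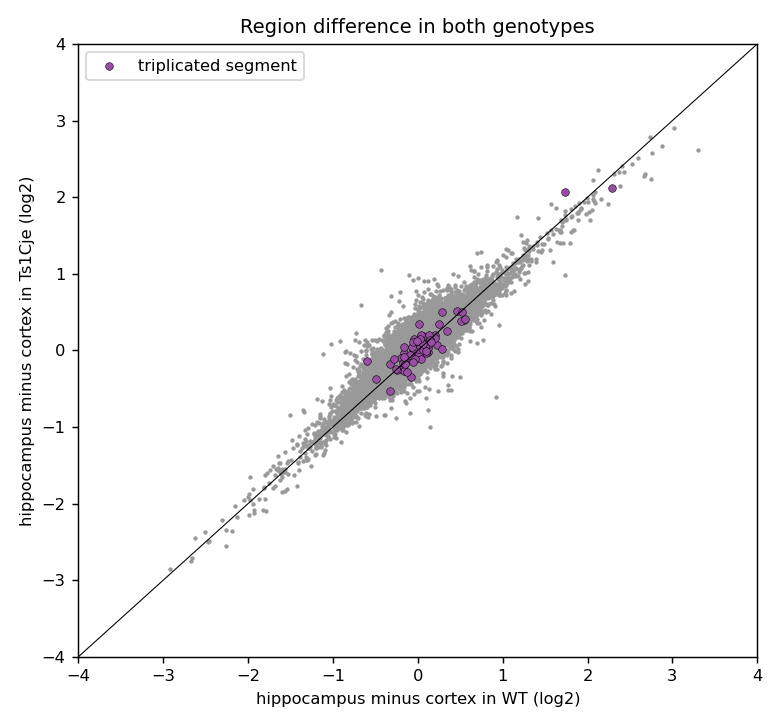
Hippocampus minus cortex difference (log2) of 20239 genes in 6 Ts1Cje mice (vertical) against that in 5 WT mice (horizontal). The line marks equal differences and purple points are the 69 genes of the triplicated segment, of which only Clic6 and Kcne2 lie beyond 1 on both axes.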

How the data were processed

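Per the submitters' processing notes the authors ran RMA (background correction, normalization, probe summary). They deposited log2 signals for 21225 features. The labels do not state the settings or version of RMA. Features were named through the platform annotation and the gene table of RefSeq GRCm38.p6: 20239 carried 1 symbol and were tested, 986 carried none. Each array was centred on its median. The region difference was fitted with limma 3.58.1 in R 4.3.3 (lmFit, eBayes, two-sided, animal as a block) on the 12 Ts1Cje arrays, with Benjamini-Hochberg adjustment over all named genes and calls at an adjusted p under 0.05, and the genotype difference on the 11 differences between an animal's arrays. Both fits were tested on simulated data. P values are set against the spread, between animals, of the hippocampus minus cortex difference, and the number of animals limits the precision.

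The comparison, the 46 gene lists (1114 of 1194 entries measured) and the rule for naming genes were chosen with earlier results of these data known. The rule took the 12 called genes with the largest difference on each side, among genes whose mean in the higher region lay above the median gene. It also took up to 3 called members per direction of each list (5 for lists of regions), a set of 30 measured genes and the 8 lowest p between genotypes. The genes of the promoters shown fall outside this rule. The pairing comes from the labels, which give both arrays of a pair the same animal number. After removal of group means the arrays of an animal correlated at 0.052 to 0.76 (median 0.24), and an animal's own partner was its best match in 2 of 6 animals. No 2 arrays were identical (highest r 0.998). Of the WT animals, the number in the title was used. The alternatives were no block, a random block, no centring, quantile normalization, a trend and robust prior, array weights, fitting all features or only the 13492 brighter genes, a stricter threshold, a minimum difference, each animal left out and, added after seeing the data, the WT comparison without animal 60 and the genotype comparison without animals 60 and 64.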

Additional observations from a re-analysis of the deposited data

Results flagged for a closer look

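Of 165 sets of 6 values examined, 14 (8.48%) had an animal far from the other 5 by Dixon's criterion, which chance gives in about 1 in 20 sets. Animal 64 was the distant one in 8, animal 63 in 3 and animal 97 in 3.

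Among the 6 Ts1Cje animals, the arrays of animal 64 had the narrowest spread, with an SD over features of 1.949 in cortex and 1.985 in hippocampus. Its hippocampus minus cortex difference (log2) was smaller than in the other animals for C1ql2 at 1.321 (2.02 to 2.39 in the others), Homer3 at 0.969 (1.43 to 1.63), Foxj1 at 0.766 (1.04 to 1.13) and Htr4 at 0.851 (1.31 to 1.57). On the cortical side it was nearer to 0 for Coch at -0.656 (-1.58 to -1.24) and Cdh6 at -1.102 (-1.37 to -1.27). These 6 genes kept their direction in this animal.

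Animal 63 was higher than the others for Dnah9 at 1.515 (1.24 to 1.31), Cacng8 at 1.125 (0.76 to 0.84) and Dnah11 at 0.237 (-0.14 to -0.019), the last in the opposite direction. Animal 97 was nearer to 0 for Adra1b at -1.116 (-1.29 to -1.24) and Fgfr1 at 0.611 (0.86 to 0.98), and its cortex array had the highest median before centring, 7.62.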

How the results depend on the processing

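With the replicate block removed, 2934 genes were higher in hippocampus and 2799 in cortex; as a random replicate block the animal gave 4650 and 4319. Without centring 280 and 18802 were called, 55 and 1769 at 2-fold or more. Leaving out the dimmest genes, with 13492 tested, gave 3032 in hippocampus and 3583 in cortex, so that 45.8% of the called genes were higher in hippocampus (51.6% with all genes); an adjusted p under 0.01 gave 2900 and 2736, and a test against a difference of 0.5 gave 291 and 306; these rules test fewer genes or ask for more. Leaving out 1 animal gave 3731 to 5258 and 3455 to 4748, highest without animal 64. The 2-fold counts moved by under 1.5 times under the other settings. Among the genes named, the call of Calb1 was lost without the block (adjusted p 0.235, limma) and Pcp4 was called with the random block (0.0198); no other call changed with the pairing.

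Without centring, which takes 0.64 from every gene, the sign turned for Bok (-0.0078), Qdpr (-0.23), Mbp (-0.31), Olig1 (-0.15), Kcnj6 (-0.30), Cyc1 (-0.034), Rplp1 (-0.074), Hunk (-0.13), Macc1 (-0.19), Wfs1 (-0.23), Fezf2 (-0.18), Lhx2 (-0.61), Emx2 (-0.15), Olig2 (-0.57), Dyrk1a (-0.60), App (-0.46), Sod1 (-0.33), Synj1 (-0.44), Rcan1 (-0.59) and Mir1a-2 (-0.22). Quantile normalization turned App (-0.098) and Dnah11 (0.0074); the cause was not tested. Of the microglial genes called higher in cortex, 5 in all, 2 or 3 were called without animal 61, 64, 94 or 97. Between genotypes 0 genes were called under every setting run, with 5 to 1562 at an unadjusted p under 0.05, and 1422 without animals 60 and 64, a choice made after seeing the data because the arrays of both animals spread less than the others. In WT mice 4960 and 5929 genes were called without animal 60, for 2746 and 3344 with it.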
